A study of Mus musculus with 12 samples.

Results

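GABA-A receptors are ligand-gated chloride channels built as a ring of subunits, in which alpha and beta subunits together form the site that binds GABA and a gamma or delta subunit completes the channel. The alpha subunit sets much of the pharmacology and the place of the receptor in the cell. Many receptors with a gamma subunit gather at synapses. Receptors with alpha4 and delta lie outside them, respond to low ambient GABA and are sensitive to neurosteroids. In the striatum almost all neurons use GABA as their transmitter, and the medium spiny neurons (MSN), its projection neurons, both release it and are inhibited by it.

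Described here are 7 subunit genes, Gabra2, Gabra3, Gabra4, Gabra5, Gabrb1, Gabrb2 and Gabrd, taken by gene name from a table of 57132 features. All 7 were found once. RNA was sequenced from the striatum of 10-month-old C57Bl/6 mice, 6 TAAR5-KO animals, which lack trace amine-associated receptor 5, and 6 wild-type (TAAR5-WT) littermates. The tissue was a coronal slice reaching forward from Bregma with the cortex cut away. The study used males and females of both genotypes, but the count columns, named NK1 to NK6 (TAAR5-KO) and NK7 to NK12 (TAAR5-WT), carry no sex and are not tied to an animal. The labels name separate animals, so the spread between libraries holds both biological and technical variation. The strain label gives no substrain. C57BL/6J mice are known to carry an intronic change in Gabra2 that lowers its RNA compared with other substrains, and the Gabra2 allele of these animals was not tested.

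The libraries held 11269915 to 34824450 counts in total, but 64.3% to 88.1% of them were ribosomal RNA, which left 1819907 to 6399188 counts for all other features. Taar5 had 1 to 6 counts in each library labelled TAAR5-KO and 0 to 2 in each labelled TAAR5-WT, which goes against the labels if the reads come from the deleted part. That part is not given in the sources used here, so every direction below is between libraries labelled TAAR5-KO and libraries labelled TAAR5-WT. Markers of striatum were counted in every library, with no reference level to set them against. Levels are in CPM, the counts of a feature scaled to library size. The sum was 17.1 to 45.8 CPM for 5 MSN genes of the D1 pathway and 62.0 to 120 CPM for 5 of the D2 pathway. Cortical pyramidal neuron markers were also counted in every library (7 genes, 52.2 to 139 CPM in sum). In bulk tissue, fewer cells of a type and less RNA per cell cannot be told apart.

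On GRCm39, 3 of the subunit genes lie in one cluster on chromosome 5. Gabra2 (ENSMUSG00000000560.10) is at chr5:71114940-71253192 and Gabra4 (ENSMUSG00000029211.12) at chr5:71727092-71815651, both on the minus strand. Gabrb1 (ENSMUSG00000029212.12) starts head to head with Gabra4 on the plus strand at chr5:71815456-72306380. The others are Gabra3 (ENSMUSG00000031343.14, chrX:71476287-71700454, minus), Gabra5 (ENSMUSG00000055078.8, chr7:57057420-57159807, minus), Gabrb2 (ENSMUSG00000007653.13, chr11:42310584-42519855, plus) and Gabrd (ENSMUSG00000029054.9, chr4:155469437-155482569, minus). Exons of Gabra4 and Gabrb1 share 46 bases on opposite strands, and exons of Gabra5 share 148 bases with Gm9962. The libraries were directional, but the strand setting of the counting is not given in the sources used here, so reads in these stretches are uncertain.

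The stretch in front of Gabra4 is shown because it lies beside the overlapping starts of Gabra4 and Gabrb1, neighbours whose levels are compared below. It is chr5:71815723-71815901 of GRCm39, read on the minus strand (179 bases from the RefSeq promoter table, GRCm38.p6, placed on GRCm39 by exact match). It lies outside every annotated exon and inside the transcribed span of Gabrb1. Capitals mark the GC box, searched as GGGCGG on both strands.

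Gabra4: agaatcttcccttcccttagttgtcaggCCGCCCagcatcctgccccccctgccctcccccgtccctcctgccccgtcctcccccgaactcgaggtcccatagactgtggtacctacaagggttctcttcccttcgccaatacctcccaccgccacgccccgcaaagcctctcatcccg

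It held 1 GC box, 10 CpG dinucleotides and no TATA box (TATAAA on both strands). RefSeq windows were given for 6 of the 7 genes. In the 250 bases before the first listed start, Gabra2 and Gabrb1 had 18 CpG each, Gabra4 12, Gabra5 9, Gabrb2 8 and Gabra3 none. The median was 6 over 32851 windows. A GC box was present in 32.7% of all windows and a TATA box in 12.4%. Among the first listed starts, the GC box was found for Gabra2, Gabra4 and Gabrb2, and the TATA box for Gabra3 and Gabrb2. These matches are descriptions of letters and were not tied to any level.

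To place the subunits in order, levels were compared per length, as CPM per kilobase of merged exons, over all 12 libraries. Gabra3, an alpha subunit best known from cortex and monoaminergic nuclei, averaged 4.58 ± 0.608 CPM per kilobase (SD, n = 12) and Gabra4, the alpha subunit of extrasynaptic receptors, 4.25 ± 0.567. Gabrb2, a beta subunit, followed at 3.85 ± 0.489. Gabra2, an alpha subunit of synapses and the axon initial segment, averaged 3.32 ± 1.16, and Gabrb1, another beta subunit, 3.29 ± 0.382. Gabra5, the alpha subunit of tonic inhibition in hippocampus, averaged 1.61 ± 0.226. Gabrd, the delta subunit that pairs with alpha4, was lowest at 0.952 ± 0.199.

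Among the upper 5 genes, no neighbours in the order differed beyond their spread, and pairs further apart were not tested. Between Gabra3 and Gabra4 the mean log2 difference in level was 0.11 (exact sign-flip permutation test over 12 libraries, two-sided, Benjamini-Hochberg adjusted over 6 neighbouring pairs, p = 0.266), and between Gabra2 and Gabrb1 it was -0.06 (adjusted exact permutation p = 0.702). Gabrb1 exceeded Gabra5 in 12 of 12 libraries, by 1.03 on the log2 scale, and Gabra5 exceeded Gabrd in 12 of 12, by 0.77 (adjusted exact permutation p = 0.00146 for each). The neighbours were set by these same levels, which favours small differences between them. Without division by length the order was another one, since Gabrb1 has the longest exons (13838 bases) and Gabrd the shortest (2875 bases). There Gabra3 minus Gabra4 was -0.53 and Gabra2 minus Gabrb1 was -0.92 on the log2 scale (adjusted exact permutation p = 0.000732 for each).

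**Figure D1:**
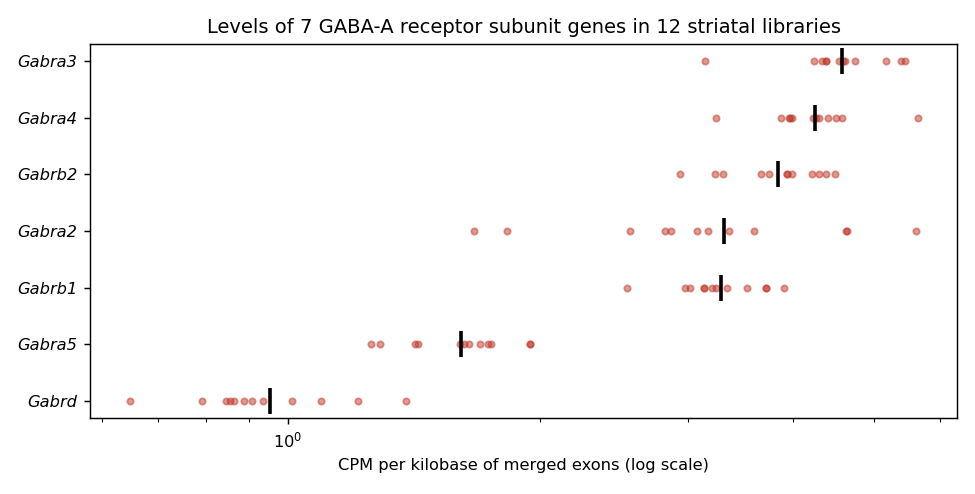
Each point is the level of a subunit gene in one library, in CPM per kilobase of merged exons on a log scale, and the bar is the mean of 12 libraries. The 7 subunits average from 0.952 for Gabrd to 4.58 for Gabra3, and Gabra2 spreads more widely than its neighbours in the order.

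No subunit passed the test between genotypes. By edgeR's likelihood ratio test, 0 of 7 had a Benjamini-Hochberg adjusted p under 0.1, against 229 of 13902 features tested (1.65%). The quasi-likelihood test of edgeR and DESeq2 also called 0 of 7. An unadjusted p under 0.05 was reached by 2 of 7, Gabra2 and Gabra4, against 11.9% of all features. All 7 passed the filter on low counts.

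**Figure D2:**
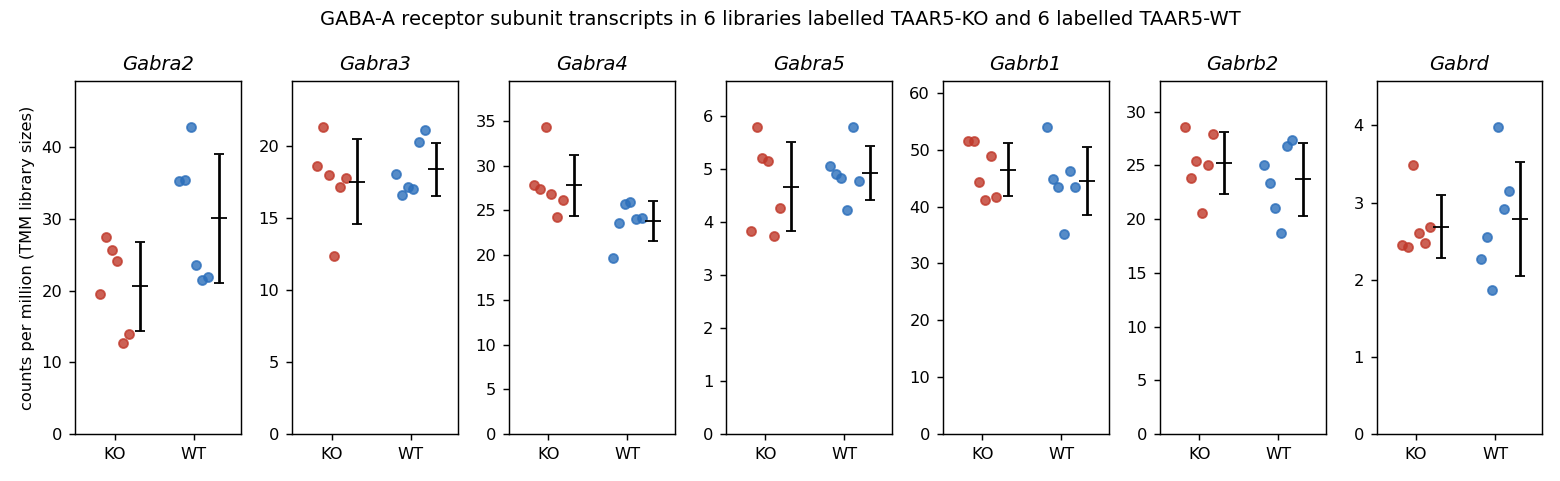
Points are the libraries, in CPM on TMM library sizes, and the bars show the mean ± SD (n = 6 per group) of each subunit. The groups overlap for every subunit, and Gabra2 has the widest spread, from 12.7 to 42.8 CPM.

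Gabra2 had the largest difference of the 7. Its level was 12.7 CPM at the lowest, 21.9 at the median and 27.5 at the highest among libraries labelled TAAR5-KO, and 21.5, 29.4 and 42.8 CPM among those labelled TAAR5-WT. The 3 highest libraries, NK7, NK8 and NK9, were all labelled TAAR5-WT and the 3 lowest, NK5, NK6 and NK1, TAAR5-KO, with both labels between them. Its log2 fold change was -0.55 (SE 0.20, 95% interval -0.95 to -0.15), which is 0.683-fold, with an unadjusted p of 0.00712 and an edgeR adjusted p of 0.190.

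The call on Gabra2 turned on how the libraries were adjusted. With each library's trend on GC content removed, the log2 fold change was -0.73 (edgeR adjusted p = 0.0217), and with the ribosomal RNA share as a covariate it was -0.71 (edgeR adjusted p = 0.0815). Leaving out any 1 library gave -0.64 to -0.42, and none of these fits called it. Its merged exons had the lowest GC content of the 7 genes, 37.0%, against 41.0% to 55.7% for the others.

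The spread of Gabra2 between libraries was wide. It was at 20.6 ± 6.22 CPM in TAAR5-KO libraries and 30.1 ± 8.99 CPM in TAAR5-WT libraries (SD, n = 6 each). Its coefficient of variation over 12 libraries, which also holds the difference between genotypes, was 35.1%. Of 2578 features with a mean of at least 10 CPM, 1.16% had a larger one, also over 12 libraries. Gabra3, Gabra4, Gabrb1 and Gabrb2 had 11.6% to 13.3%, near the median of 11.4% for those features. In order of level, the libraries were NK5 and NK6 (12.7 and 13.9 CPM), then NK1, NK11, NK12, NK10, NK4, NK3 and NK2 (19.5 to 27.5 CPM), then NK7, NK8 and NK9 (35.3, 35.5 and 42.8 CPM). The largest steps between neighbours in that order were 1.40-fold, from NK6 to NK1, and 1.28-fold, from NK2 to NK7. As a share of the counts of Gabra2 and Gabra4 together, Gabra2 held 34.4% in NK5 (Wilson 95% interval 31.3 to 37.6) and 34.8% in NK6 (32.4 to 37.2). It held 60.1% in NK8 (57.5 to 62.6) and 64.2% in NK7 (61.7 to 66.5). These libraries were taken from the low and high ends of the order above. The share also carries the level of Gabra4, which was lowest in NK7 (19.7 CPM). The part of counting error in the level of Gabra2 alone was not tested.

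Transcripts that mark sex moved with some of these libraries. Xist, the RNA of the inactive X chromosome, was at 1.10 CPM or less in NK1, NK2, NK3, NK7, NK8 and NK9 and at 95.6 to 144 CPM in the other 6, and the Y-linked Ddx3y was at 9.73 to 12.5 CPM in the first 6 only (at most 0.0226 CPM in the rest). Among libraries with Ddx3y, Gabra2 was therefore high in NK7, NK8 and NK9 and at 19.5 to 27.5 CPM in NK1, NK2 and NK3. Among libraries with Xist, Gabra2 was lowest in NK5 and NK6, but at 24.2 CPM in NK4, also labelled TAAR5-KO. In NK10, NK11 and NK12, labelled TAAR5-WT and also with Xist, it was at 23.5, 21.5 and 21.9 CPM. With the Xist level as a covariate, a fit added after the data were seen, the log2 fold change of Gabra2 was -0.53 (edgeR adjusted p = 0.0237). In that fit 519 of 13902 features were called.

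Gabra4 went the other way in value. TAAR5-KO libraries lay between 24.3 and 34.3 CPM (median 27.1) and TAAR5-WT libraries between 19.7 and 25.9 CPM (median 24.1). The groups overlapped, with NK3 highest and NK7 lowest. The log2 fold change was 0.22 (SE 0.10, 95% interval 0.03 to 0.42), with an unadjusted p of 0.0247 and an edgeR adjusted p of 0.325. With library size as the only scaling it was -0.27, but there the median of all features was -0.49, so that Gabra4 stood 0.23 above that median.

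Gabrd, whose product forms extrasynaptic receptors with that of Gabra4, had few counts (17 to 139 per library). TAAR5-KO libraries lay between 2.42 and 3.49 CPM (median 2.54) and TAAR5-WT libraries between 1.86 and 3.98 CPM (median 2.73). The second range held all of the first. The log2 fold change of Gabrd was -0.05 with an SE of 0.15 (edgeR adjusted p = 0.939), and 0.06 with the GC trend removed.

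Gabra3 and Gabra5 also overlapped between genotypes. Gabra3 ran from 12.3 to 21.3 CPM (median 17.9) in TAAR5-KO libraries and from 16.6 to 21.1 CPM (median 17.6) in TAAR5-WT libraries, with NK4 alone below 16 CPM. The log2 fold change of Gabra3 was -0.08, with an SE of 0.11 (edgeR adjusted p = 0.849). Gabra5 ran from 3.74 to 5.78 CPM (median 4.70) against 4.22 to 5.78 CPM (median 4.86), with a log2 fold change of -0.12 (SE 0.13, edgeR adjusted p = 0.772).

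The beta subunits differed by less than the spread between libraries. Gabrb1 ran from 41.2 to 51.5 CPM (median 46.6) in TAAR5-KO libraries and from 35.1 to 54.0 CPM (median 44.1) in TAAR5-WT libraries, with NK10 lowest and NK7 highest. Its log2 fold change was 0.06 (95% interval -0.15 to 0.26, edgeR adjusted p = 0.893), and -0.05 with the GC trend removed. Gabrb2 ran from 20.5 to 28.6 CPM (median 25.2) against 18.7 to 27.3 CPM (median 24.2). Its log2 fold change was 0.08 (95% interval -0.14 to 0.29, edgeR adjusted p = 0.845), and -0.02 with the GC trend removed. With library size alone both were negative, -0.52 for Gabrb1 and -0.47 for Gabrb2, close to the median of all features in that fit.

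**Figure D3:**
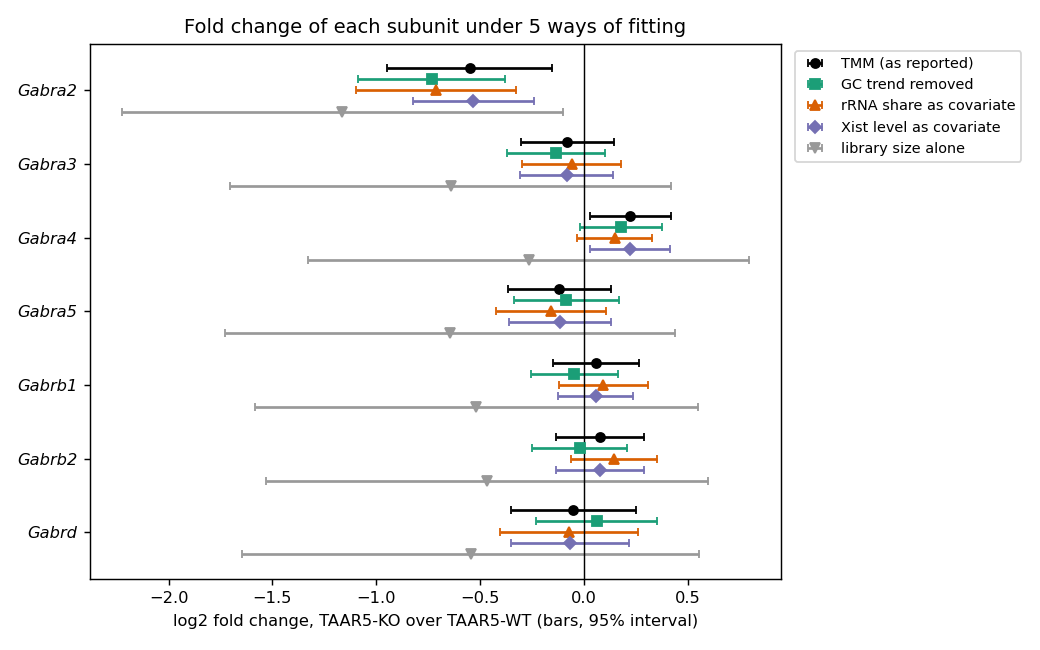
Log2 fold changes of the 7 subunits (TAAR5-KO over TAAR5-WT) with 95% intervals under 5 ways of fitting the counts. Gabra2 lies below 0 in all 5, from -1.16 with library size alone to -0.53 with the Xist level as a covariate. The median of all features itself lies at -0.49 with library size alone. Gabrb1, Gabrb2 and Gabrd change sign with the GC trend removed, and Gabra4 is positive in the 4 fits other than library size alone.

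Shares and ratios within the receptor family do not depend on the scaling of a library. Of the summed level of the 7 subunits, Gabra2 held 8.49% to 16.2% in TAAR5-KO libraries (median 12.8%) and 12.5% to 24.4% in TAAR5-WT libraries (median 17.9%). The means differed by -5.34 percentage points, with overlap (exact permutation p = 0.0498, adjusted over 7 shares 0.174). Gabra4 held 18.9% to 23.8% (median 20.8%) against 14.2% to 21.4% (median 17.7%), and its means differed by 3.39 percentage points (exact permutation p = 0.0152, adjusted 0.106). As a centred log ratio the adjusted exact permutation p for Gabra4 was 0.0455. Leaving out 1 library gave adjusted exact permutation p-values for the share of Gabra4 from 0.0303 (without NK10) to 0.197 (without NK3). A share falls where another rises, so these are not separate results.

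The other shares were close between genotypes. Gabra3 held 20.7% ± 2.57 in TAAR5-KO libraries and 21.2% ± 2.08 in TAAR5-WT libraries (SD, n = 6 each). Gabra5 held 7.26% ± 1.12 against 7.48% ± 0.596. Gabrb1 held 15.6% ± 1.57 against 14.5% ± 1.49, and Gabrb2 18.5% ± 2.40 against 16.8% ± 2.00. Gabrd held 4.35% ± 0.572 against 4.44% ± 1.43. Adjusted exact permutation p-values for these 5 ran from 0.398 to 0.900. By class, the 4 alpha subunits held a median of 61.4% in TAAR5-KO libraries and 63.5% in TAAR5-WT libraries, and the pair of beta subunits 34.0% and 32.2%.

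**Figure D4:**
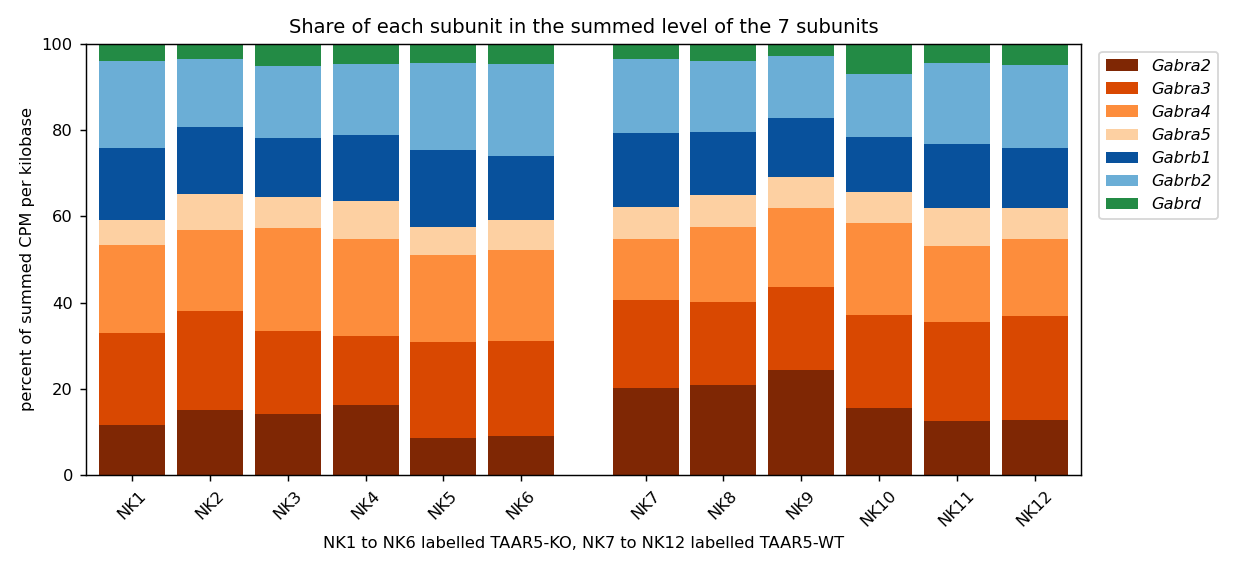
Stacked bars give the percent of each subunit in the summed CPM per kilobase of the 7 subunits, one bar per library. Gabra2 (dark, at the base) is largest in NK7, NK8 and NK9, with 24.4% as the highest value, and smallest in NK5 and NK6, with 8.49% as the lowest.

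Among 5 ratios of counts per kilobase, none passed an adjusted p under 0.05. The log2 ratio of Gabra4 to Gabra2 came nearest. It was 0.32 to 1.26 in TAAR5-KO libraries (median 0.80) and -0.51 to 0.49 in TAAR5-WT libraries (median 0.10), with overlap. The means differed by 0.77 (exact permutation p = 0.0173, adjusted over 5 ratios 0.0866). Leaving out 1 library gave adjusted exact permutation p-values from 0.0433 (without NK11) to 0.206 (without NK5 or NK6).

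For Gabra5 over Gabra2 the difference over all libraries was 0.46 (adjusted exact permutation p = 0.146, and 0.0433 without NK11 to 0.281 without NK5), and for Gabra3 over Gabra2 it was 0.47 (adjusted 0.198). These 3 ratios share Gabra2. The ratio of Gabrd to Gabra4, the partners of extrasynaptic receptors, differed by -0.24 (adjusted exact permutation p = 0.198), but without NK9 it differed by -0.37 (adjusted 0.0108), and without NK10 by -0.15 (adjusted 0.392). The ratio of Gabrb1 to Gabrb2 differed by -0.02 (adjusted 0.801).

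Neighbours in the chromosome 5 cluster were examined for levels that vary together. Over 12 libraries with genotype means removed, Gabra2 and Gabra4 had r = 0.27 (permutation p = 0.440, adjusted over 21 pairs 0.859, rho = 0.33, permutation p = 0.314), and -0.0042 without the 2 libraries farthest from the median of Gabra2. Gabra2 and Gabrb1 had r = 0.23 (permutation p = 0.496, adjusted 0.859, rho = 0, permutation p = 1). Gabra4 and Gabrb1, which overlap head to head beside the stretch printed above, had r = -0.50 (permutation p = 0.115, adjusted 0.373, rho = -0.43, permutation p = 0.173), and -0.31 without the 2 farthest. Another gene of the cluster, Gabrg1, ran from 4.54 to 9.41 CPM and was not high in NK7, NK8 and NK9 (6.35, 6.69 and 6.57 CPM).

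**Figure D5:**
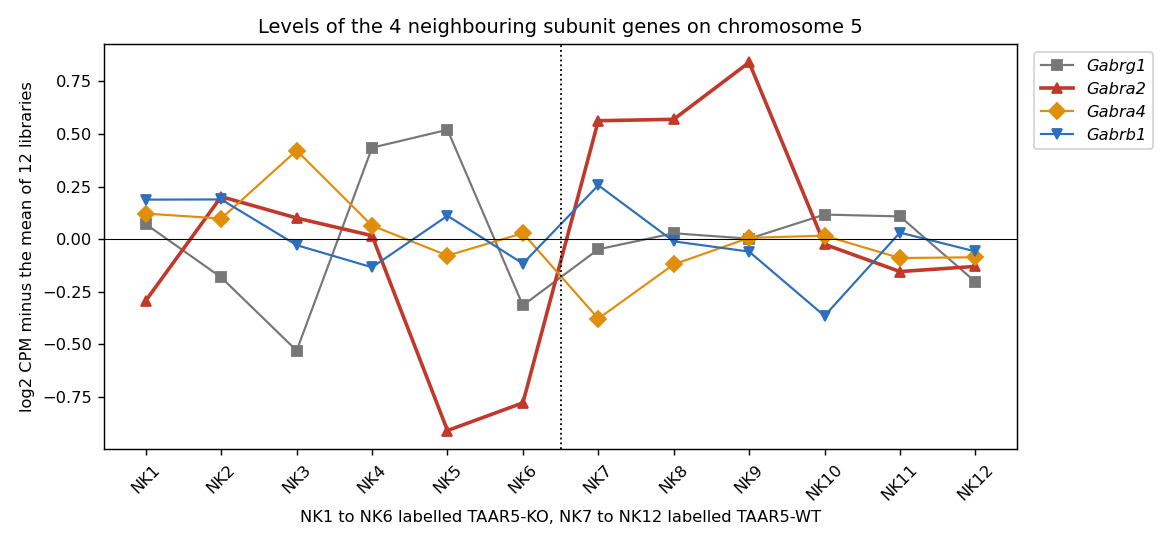
Lines give log2 CPM minus the gene's mean over 12 libraries for Gabrg1, Gabra2, Gabra4 and Gabrb1, with libraries labelled TAAR5-KO left of the dotted line. Gabra2 is lowest in NK5 and NK6 and highest in NK7, NK8 and NK9, whereas Gabra4 is lowest and Gabrb1 highest in NK7 alone and Gabrg1 is highest in NK5.

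Of the 21 pairs of subunits, 0 passed an adjusted permutation p under 0.05, by r or by rho. By r, 1 pair had an unadjusted p under 0.05. By rho alone, Gabrb1 with Gabrd had one too (rho = -0.64, permutation p = 0.0275, adjusted 0.299, r = -0.59, permutation p = 0.0710). The pair under 0.05 by both was Gabra3 with Gabrb2 (r = 0.65, permutation p = 0.0213, adjusted 0.373, rho = 0.66, permutation p = 0.0285). Its r was 0.64 within the libraries labelled TAAR5-KO, 0.80 within those labelled TAAR5-WT and 0.80 without the 2 farthest libraries. Both genes also varied with the summed cortical pyramidal markers: r was 0.76 for Gabra3 (adjusted permutation p over 56 relations 0.120, rho = 0.77, adjusted 0.149, 0.66 without the 2 farthest) and 0.71 for Gabrb2 (adjusted permutation p = 0.211, rho = 0.76, adjusted 0.149, 0.55 without the 2 farthest). None of the 56 relations between subunits and marker sums passed.

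Markers of cell types were read beside these subunits, and some lists differed between genotypes in their sums or calls. The 6 astrocyte markers summed to 184 to 244 CPM in TAAR5-KO libraries and 247 to 289 CPM in TAAR5-WT libraries. Of the 6, 1 (Gja1) was called lower and 5 had an unadjusted p under 0.05. Over all features, 1.65% were called and 11.9% had an unadjusted p under 0.05. The 5 microglia markers summed to 21.8 to 31.7 against 29.9 to 38.4 CPM, with 2 of 5 called lower. Of these 5, 3 had an unadjusted p under 0.05. The 5 oligodendrocyte markers summed to 209 to 322 against 308 to 383 CPM, with 0 of 5 called and 3 at an unadjusted p under 0.05. The 5 markers of thalamus and septum summed to 10.1 to 34.9 against 22.0 to 40.0 CPM, with 1 of 5 (Slc17a6) called lower. In this list 2 had an unadjusted p under 0.05. The 5 D1 markers summed to 28.2 to 45.8 against 17.1 to 36.8 CPM, with 0 of 5 called, 1 at an unadjusted p under 0.05 and 4 with a positive log2 fold change. For the 5 D2 markers the sum was 98.2 to 120 against 62.0 to 107 CPM, and 4 had a positive log2 fold change. Sums of the 7 interneuron markers were 32.1 to 39.2 against 32.8 to 39.2 CPM. For the 7 cortical pyramidal markers they were 52.2 to 131 against 55.9 to 139 CPM. In the D2, interneuron and cortical lists 0 genes were called and 0 had an unadjusted p under 0.05. By edgeR's quasi-likelihood test no marker of any list was called. No marker gene was at 0 in all libraries. Gabra4 had r = -0.71 with the astrocyte sum (adjusted permutation p = 0.129, rho = -0.69, adjusted 0.149, -0.71 without the 2 farthest) and -0.74 with the microglia sum (adjusted permutation p = 0.211, rho = -0.69, adjusted 0.165, -0.63 without the 2 farthest), genotype means removed. The part of cell composition in any subunit's level was not tested.

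The genes around the subunits were read from 4 lists. Among 9 other GABA-A family genes, 4 passed the filter and 0 were called, with 0 at an unadjusted p under 0.05. The largest log2 fold changes were those of Gabre (-0.76, SE 0.53) and Gabrq (-0.56, SE 0.43), epsilon and theta subunits of low level.

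Among 24 genes of receptor anchoring and trafficking, against 1.65% of all features called, 1 was called lower and none higher. This was Iqsec3, a postsynaptic exchange factor that binds gephyrin at inhibitory synapses, at 18.2 ± 1.92 CPM in TAAR5-KO libraries and 22.5 ± 2.73 CPM in TAAR5-WT libraries (SD, n = 6 each). On the log2 scale Iqsec3 fell by 0.32, with an SE of 0.10 (adjusted p = 0.0934 by the likelihood ratio test and 0.180 by the quasi-likelihood test, both of edgeR). Of the 24, 5 had an unadjusted p under 0.05, against 11.9% of all features. Gphn, the gephyrin scaffold itself, had a log2 fold change of 0.06 (SE 0.08).

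Of 7 genes of chloride balance, which set the driving force through the receptor, 0 were called and 0 had an unadjusted p under 0.05. The transporters Slc12a2 (chloride import) and Slc12a5 (chloride export) had log2 fold changes of -0.04 (SE 0.14) and 0.01 (SE 0.10), and the largest in size were those of Car7 (-0.38, SE 0.33) and Oxsr1 (-0.06, SE 0.11). Of 6 genes that supply neurosteroids and endozepines, ligands of these receptors, 3 passed the filter and 0 were called, with 0 at an unadjusted p under 0.05. Star had 0.22 (SE 0.22) and Dbi 0.09 (SE 0.14) on the log2 scale.

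The features most like each subunit in profile were listed as a description, by Pearson's r over the 12 libraries with genotype means removed, among 4611 tested features of at least 5 CPM. For Gabra2 these were Zfp652 (r = 0.91) and Stag1 (0.91), and for Gabra4 Ddx1 (0.93) and Sfmbt1 (0.90). Gabra3 was nearest to Magi1 (0.96) and Slc8a1 (0.95), and Gabra5 to Lgalsl (0.82) and Pcnx (0.82). Gabrb1 was nearest to Pak3 (0.95) and Lsamp (0.87), Gabrb2 to Cxcl14 (0.94) and Brinp1 (0.93), and Gabrd to Atg2b (0.90) and Atg4c (0.90). No subunit was among the 2 nearest features of another.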

How the data were processed

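Striatal RNA of 6 TAAR5-KO and 6 TAAR5-WT mice was depleted of ribosomal RNA and sequenced single-end. The counts that the authors deposited are whole numbers for each gene, made with cutadapt 4.1, STAR 2.7.11b (GRCm39) and featureCounts 2.0.6, neither normalized nor pooled. The labels call the molecule polyA RNA, although the protocol describes depletion of ribosomal RNA. Per the file headers, the merged exon length of each gene stands beside the counts. The same table has 12 other columns of counts, each of a library outside this comparison, which were left out. Some genes of the receptor family are not reported here.

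The filter was a CPM of 0.5 or more in 3 or more libraries, which 13902 features passed. TMM factors and the likelihood ratio test of edgeR 4.0.16 (R 4.3.3) were applied to the whole table, without covariates, and an adjusted p under 0.1 was called. Library size in CPM is total counts times the TMM factor. Shares and ratios were tested over all 924 assignments of libraries to groups (smallest p 0.00216), and over fewer where a library was left out. The order of levels was tested over all sign flips of the libraries, and correlations with 100000 permutations within genotype. All of these were two-sided, at an adjusted p under 0.05. Alternatives were the quasi-likelihood test, DESeq2 1.42.0, other scalings and filters, removal of ribosomal RNA features, of GC or length trends (loess, span 0.5), a ribosomal RNA covariate and each library left out. The Xist covariate was added after the data were seen. GC content came from GRCm39.

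Named genes were the 7 subunits, in each list the called genes or otherwise the 2 of largest change, and the 2 features nearest to each subunit. A few others, among them Gabrg1, Gphn, Slc12a2, Slc12a5, Xist and Ddx3y, were named after their values were seen. The subunits, lists and tests were chosen with earlier results of these data known. No pair of libraries of the same genotype agreed within counting error (chi-square per degree of freedom 6.78 to 349, 30 pairs). The test was checked on simulated data. Intervals of counts cover counting error only.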

Additional observations from a re-analysis of the deposited data

Results flagged for a closer look

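In 28 groups of 6 values (the CPM and the share of 7 subunits in each genotype), 3 held a sample far from the others, by Dixon's test at a critical value of 0.625. Chance flags about 1 in 20 such groups. In the libraries labelled TAAR5-KO, NK3 stood alone at 34.3 CPM for Gabra4 and at 3.49 CPM for Gabrd, with the next libraries at 27.9 and 2.69 CPM. NK3 had the largest share of ribosomal RNA, 88.1%, whose part in these values was not tested. In the libraries labelled TAAR5-WT, NK11 stood alone with 8.65% for the share of Gabra5.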

How the results depend on the processing

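No paired analysis was possible because no label pairs a TAAR5-KO animal with a TAAR5-WT animal. The count columns also carry no replicate number of the labels. Gabra2 was called in 3 fits: with the GC trend removed (-0.73), with the ribosomal RNA share as covariate (-0.71) and with the Xist level as covariate (-0.53, chosen after seeing the data). Each of these called 1 of 7 subunits. With library size alone the log2 fold changes were -0.27 for Gabra4, -0.52 for Gabrb1 and -0.47 for Gabrb2. The median of all features in that fit was -0.49. With the GC trend removed those of Gabrb1, Gabrb2 and Gabrd turned to -0.045, -0.021 and 0.062. Against the 229 features called in the reported fit, the totals of other fits were 63 (quasi-likelihood test), 7 (library size alone), 93 (no filter), 86 (GC trend removed), 98 (ribosomal RNA covariate), 519 (Xist covariate), 108 (adjusted p under 0.05) and 85 (without NK11) to 415 (without NK4). The 1 pathway gene called was 0 by the quasi-likelihood test and 0 with library size alone. As a centred log ratio, Gabra4 differed by 0.27 and Gabrd by 0.031. Per CPM without length, Gabra3 minus Gabra4 was -0.53 and Gabra2 minus Gabrb1 was -0.92.

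Leaving out each library in turn gave log2 fold changes of -0.11 to 0.020 for Gabrd, where the value turned without NK10 or NK12. Shares differed by -0.96 to 0.39 percentage points for Gabra3 (turned without NK4 or NK12), 2.67 to 4.10 for Gabra4, -0.53 to 0.079 for Gabra5 (turned without NK1 or NK11) and -0.41 to 0.41 for Gabrd (turned without NK1, NK2, NK10 or NK12). Log2 ratios differed by -0.37 to -0.15 for Gabrd over Gabra4, 0.66 to 0.87 for Gabra4 over Gabra2, 0.34 to 0.60 for Gabra5 over Gabra2 and -0.073 to 0.036 for Gabrb1 over Gabrb2 (turned without NK6, NK7 or NK9). The level of Gabra2 minus that of Gabrb1 was -0.14 to 0.032. The correlation of Gabra2 with Gabra4 was -0.16 with genotype means kept and -0.0042 without the 2 farthest libraries. That of Gabra4 with Gabrb1 was 0.96 with library size alone, where all 21 pairs of subunits had r from 0.78 to 0.99. The cause of these changes was not tested. The coding-length alternative for the order of levels was not run.

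Gabrd (17 to 139 counts per library) and Gabra5 (35 to 211) had the fewest counts.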
